A study of Mus musculus with 35 samples.

Results

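The cytosolic ribosomal protein genes were followed in the suprarenal aorta of angiotensin II-treated mice. Members were the array probes whose gene name in the scanner files is Rpl or Rps followed by a number, with an optional closing letter or digit, or is Rplp0, Rplp1, Rplp2 or Rpsa, with the S6 kinases left out. The rule found 135 of 41174 probes, which stand for 81 of 27595 genes, 49 of the large and 32 of the small ribosomal subunit. All 81 genes had a probe that passed the filter on dim signals and were tested among 18687 genes. All mice were male and ApoE-/-, that is, they lack apolipoprotein E and become hypercholesterolaemic, and were 12 to 14 weeks old when an osmotic minipump was placed under the skin. The pump delivered saline or angiotensin II (Ang II), a pressor peptide, at 1000 ng/kg/min. Saline aortas numbered 6, 6 and 5 at 7, 14 and 28 days, and Ang II aortas 4, 5 and 6, and 3 more aortas taken after 7 days of Ang II were labelled dissected. The labels call the other 7-day Ang II aortas non-dissected aneurysms and those of 14 and 28 days aneurysms. Each array carried RNA of 1 whole suprarenal aorta in Cy5 against a commercial universal mouse reference RNA in Cy3, so values are log2 ratios of aorta to reference and were read only as differences between aortas.

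Each cytosolic ribosome joins a small subunit, which reads the mRNA, to a large subunit, which forms the peptide bond, and holds close to equal amounts of most of the proteins encoded by these genes. Many of the mRNAs carry a terminal oligopyrimidine tract, a C at the first base followed by pyrimidines, through which the kinase mTOR and the binding protein LARP1 set how well they are translated. Demand for ribosomes is high in growing and dividing cells, and Ang II is a known growth stimulus of vascular smooth muscle. Mitochondria hold a separate ribosome, whose nuclear genes carry the prefixes Mrpl and Mrps.

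The tract is shown here because it is the shared sequence by which this family is known. RefSeq start-site windows (GRCm38.p6) were matched by symbol to 61 of the 81 genes, and a C followed by at least 4 C or T bases opened the listed transcript in 13 of 73 member windows (17.8%), against 823 of 32851 windows of all genes (2.51%). The following windows of 50 bases run 5′ to 3′ on the gene's strand, from 25 bases before the listed start, with the pyrimidine run in capitals. Rpl38 is at chr11:114668555-114668604 (+), Rplp2 at chr7:141447626-141447675 (+), Rps6 at chr4:86857343-86857392 (-) and Rps27 at chr3:90213624-90213673 (-).
Rpl38: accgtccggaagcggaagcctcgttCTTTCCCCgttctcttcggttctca
Rplp2: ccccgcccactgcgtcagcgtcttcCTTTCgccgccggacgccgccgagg
Rps6: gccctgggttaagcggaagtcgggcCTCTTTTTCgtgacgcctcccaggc
Rps27: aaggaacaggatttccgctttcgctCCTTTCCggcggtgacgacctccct
Members whose values are described below but whose listed start does not open with the run include Rps12 at chr10:23787185-23787234 (-), Rplp0 at chr5:115559442-115559491 (+) and Rpl5 at chr5:107900503-107900552 (+).
Rps12: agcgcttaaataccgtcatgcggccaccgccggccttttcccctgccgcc
Rplp0: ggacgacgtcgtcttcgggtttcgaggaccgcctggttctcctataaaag
Rpl5: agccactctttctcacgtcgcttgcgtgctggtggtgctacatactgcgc
For these the letters say only that no such run begins at the listed base, and a listed start can differ from the one a tissue uses. The ETS-family motif CCGGAAG, searched on both strands of the 300-base windows with CTTCCGG as its complement, was held by 26 of 73 member windows (35.6%) and 8.86% of all windows. A match is a description of the letters only.

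The aorta channel was well above background for 45.0% to 84.8% of gene spots over the arrays, with a median of 57.1%, and for 90.3% to 97.2% of the members' spots. No member spot was saturated in either channel. Probe signal of 71 of the 81 members lay above the 95th percentile of all genes tested, and the 864 other genes above that percentile are given beside the members where brightness matters. Only Rpl3l was dim, well above background on 8 of 35 arrays. Genes of contractile smooth muscle had a mean log2 ratio of 1.49 to 4.51 over the arrays, above the reference on each, which is given only as a check of the labelled tissue. Ang II 14-day replicate 4 had the highest share of spots above background and saline 28-day replicate 5 the lowest. Saline 7-day replicate 5 and saline 28-day replicates 2 and 4 had a median absolute log2 ratio of 0.0961, 0.0458 and 0.042 against 0.152 to 0.396 on the other arrays. Results are given without these arrays where that matters.

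After 7 days of Ang II the ribosomal protein genes rose together. In limma 55 of the 81 were higher (67.9%) and none lower, where 27.1% of all genes tested were called, 14.5% higher and 12.6% lower. The members' median log2 change was 0.71, with quartiles of 0.56 and 0.84, and that of all genes was 0.00. Of the 81 genes 79 had a change above 0, and the 55 called ones rose by 1.31-fold to 2.55-fold. The rise was held by both subunits, 24 of 32 small subunit genes (median 0.76) and 31 of 49 large subunit genes (median 0.61). In whole aorta, more cells with many ribosomes and more ribosomal protein mRNA per cell cannot be told apart.

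Array by array, the median log2 ratio over the 81 genes was -1.61 to -1.09 with a median of -1.29 in the 6 saline aortas of 7 days. It was -0.88, -0.83, -0.37 and -0.29 in the 4 Ang II aortas, so the groups did not overlap and the Ang II aortas formed a lower and a higher pair. The same median over 78 mitochondrial ribosomal protein genes ran from 0.10 to 0.66 in saline and was -0.39, -0.30, -0.10 and 0.08 in Ang II. The 2 families therefore moved in opposite directions. For 38 members (46.9%) every Ang II value lay above every saline value, against 12.3% of all genes, and for none the reverse, against 8.32%.

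**Figure D1:**
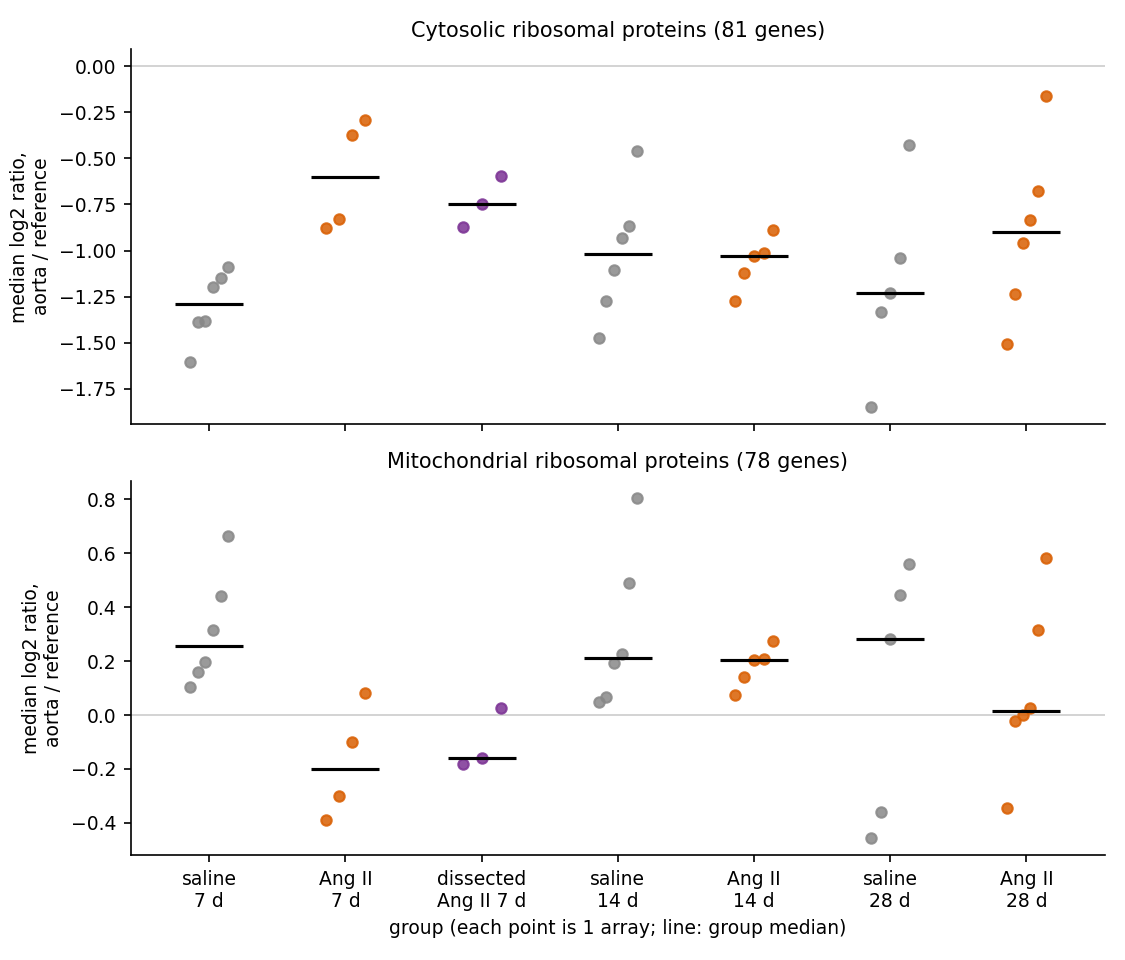
Median log2 ratio of aorta to reference on each array, over 81 cytosolic (top) and 78 mitochondrial (bottom) ribosomal protein genes, by group; each point is 1 array and the line the group median. At 7 days the 4 Ang II arrays and the 3 dissected arrays lie above all 6 saline arrays in the top panel and below all 6 in the bottom panel, while the groups overlap at 14 and 28 days.

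The count moved with the normalization and with single arrays, while the members' median log2 change stayed between 0.50 and 0.95 under every alternative tried. The counts that follow show only how the members' calls moved, since shares of all genes under these alternatives are not given. With each array centred on its median in place of an intensity-dependent loess curve, 6 members were called and their median log2 change was 0.50, that of all genes -0.07. Scale normalization between arrays, which multiplied each array by 0.551 to 5.2, left no member called, with a median of 0.95. Without Ang II replicate 1 the count was 25, without replicate 2 it was 26, and without the 3 saline arrays of low log2 ratios it was 40. Saline replicate 5 is the only one of these 3 at 7 days. Within scan day 1, with 3 arrays a group, 21 members were called (median 0.70), and within scan day 2, with a single Ang II array, none was (median 0.52).

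Among small subunit genes Rps12, which sits on the head of the subunit, rose most. Its log2 ratio ran from -1.94 to -1.13 (median -1.38) in saline and was -0.36, -0.24, 0.03 and 0.18 in Ang II. The groups did not overlap, and the log2 change was 1.35 (standard error 0.28, 2.55-fold, adjusted p = 0.000661). Rps20, a protein of the same region, went from -1.93 to -1.21 in saline (median -1.45) to -0.98, -0.71, -0.18 and 0.33, a log2 change of 1.12 (0.31, adjusted p = 0.00837). Rps28, near the mRNA exit, rose by 1.03 on the log2 scale (0.24), and its 3 probes gave 1.03, 0.90 and 1.02.

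Rps6, the small subunit protein phosphorylated by the S6 kinases, had log2 ratios of -2.21 to -1.17 in saline (median -1.57) and of -1.18, -1.06, -0.91 and -0.36 in Ang II. These groups met at their edges, and Rps6 rose by 0.78 on the log2 scale (0.28, adjusted p = 0.041). Rpsa, also known as the laminin receptor precursor, rose by 0.61 (0.23, adjusted p = 0.0443). Rps27a, made as a fusion with ubiquitin, rose by 0.83 (0.28) although 1 Ang II value, -1.22, lay inside the saline range of -1.68 to -0.91. Rps3, at the mRNA entry channel, rose by 0.67 (0.23). Rps19, a gene mutated in Diamond-Blackfan anaemia, rose by 0.78 (0.28, adjusted p = 0.0396) on its brightest probe, while its other probe gave a log2 change of -0.59 with an adjusted p of 0.137. Rps14, lost in 5q- syndrome, was at 0.36 (0.30) and was not called (adjusted p = 0.397).

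In the large subunit Rpl41, the shortest ribosomal protein, rose most. The log2 ratio of Rpl41 was -1.15 to -0.60 in saline (median -0.85) and 0.26, 0.26, 0.47 and 0.88 in Ang II, a gap wider than either group's range. Its log2 change was 1.32 (0.23, adjusted p = 0.000122). Rplp1, an acidic protein of the stalk that recruits elongation factors, went from -1.09 to -0.29 (median -0.72) to 0.19, 0.50, 0.66 and 0.76, a log2 change of 1.22 (0.29, adjusted p = 0.00278). Rpl39, which lines the peptide exit tunnel, went from -1.62 to -1.10 (median -1.34) to -0.93, -0.31, 0.10 and 0.15, a log2 change of 1.12 (0.30, adjusted p = 0.00588).

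The 3 stalk genes did not share 1 size of change. Rplp0, which anchors Rplp1 and Rplp2, had log2 ratios of -2.50 to -1.87 in saline (median -2.05) and of -1.68, -1.64, -0.90 and -0.84 in Ang II, a log2 change of 0.85 (0.20, adjusted p = 0.00262). Rplp2 was at -0.48 to 0.32 in saline (median -0.01) and at -0.04, 0.11, 0.39 and 0.53 in Ang II. These ranges overlapped, and its log2 change of 0.30 (0.22) was not called (adjusted p = 0.329). A pair of further probes filed under Arbp, an older name of Rplp0 outside the naming rule, rose by 0.97 (0.27) and 0.78 (0.22).

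Of other large subunit genes, Rpl38, known for its part in translating Hox mRNAs, rose by 0.81 (0.24, adjusted p = 0.0132), from -0.86 to -0.30 in saline to 0.06, 0.25, 0.27 and 0.34 in Ang II. Rpl10a rose by 0.76 (0.19), Rpl13a, part of the interferon-induced GAIT complex, by 0.68 (0.26, adjusted p = 0.0473) and Rpl10, a late-joining protein at the subunit interface, by 0.72 (0.24). Rpl5 and Rpl11, which bind 5S RNA and restrain the p53 ligase Mdm2, were at 0.41 (0.28, adjusted p = 0.279) and 0.51 (0.20, adjusted p = 0.0594). Rpl3, at the peptidyl transferase centre, was at 0.40 (0.23, adjusted p = 0.204), and Rpl4, at the exit tunnel, at 0.12 (0.17, adjusted p = 0.656).

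The copies of other members gave mixed results. Rpl7l1, a copy of Rpl7, rose by 0.58 (0.12, adjusted p = 0.000927) on its brightest probe, while its other probe had a log2 change of -0.07. Rps27l, Rpl22l1 and Rpl3l were not called. Rps27l, a p53-induced copy of Rps27, had log2 ratios of -1.08 to -0.11 in saline and of -0.92, -0.67, -0.54 and -0.52 in Ang II, inside the saline range, with a log2 change of -0.01 (0.16, adjusted p = 0.987). Rps27 itself was at 0.56 (0.37, adjusted p = 0.263). Rpl22l1 was at 0.57 (0.24, adjusted p = 0.0728). Its copy Rpl22 rose by 0.83 (0.23, adjusted p = 0.00703) on its brightest probe, while the other Rpl22 probe had a log2 change of -0.15. Rpl3l, a copy of Rpl3 made in striated muscle, was at -0.08 (0.47) and was well above background on 1 of 6 saline and 1 of 4 Ang II arrays. The 26 genes without a call had log2 changes from -0.08 to 0.73.

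**Figure D2:**
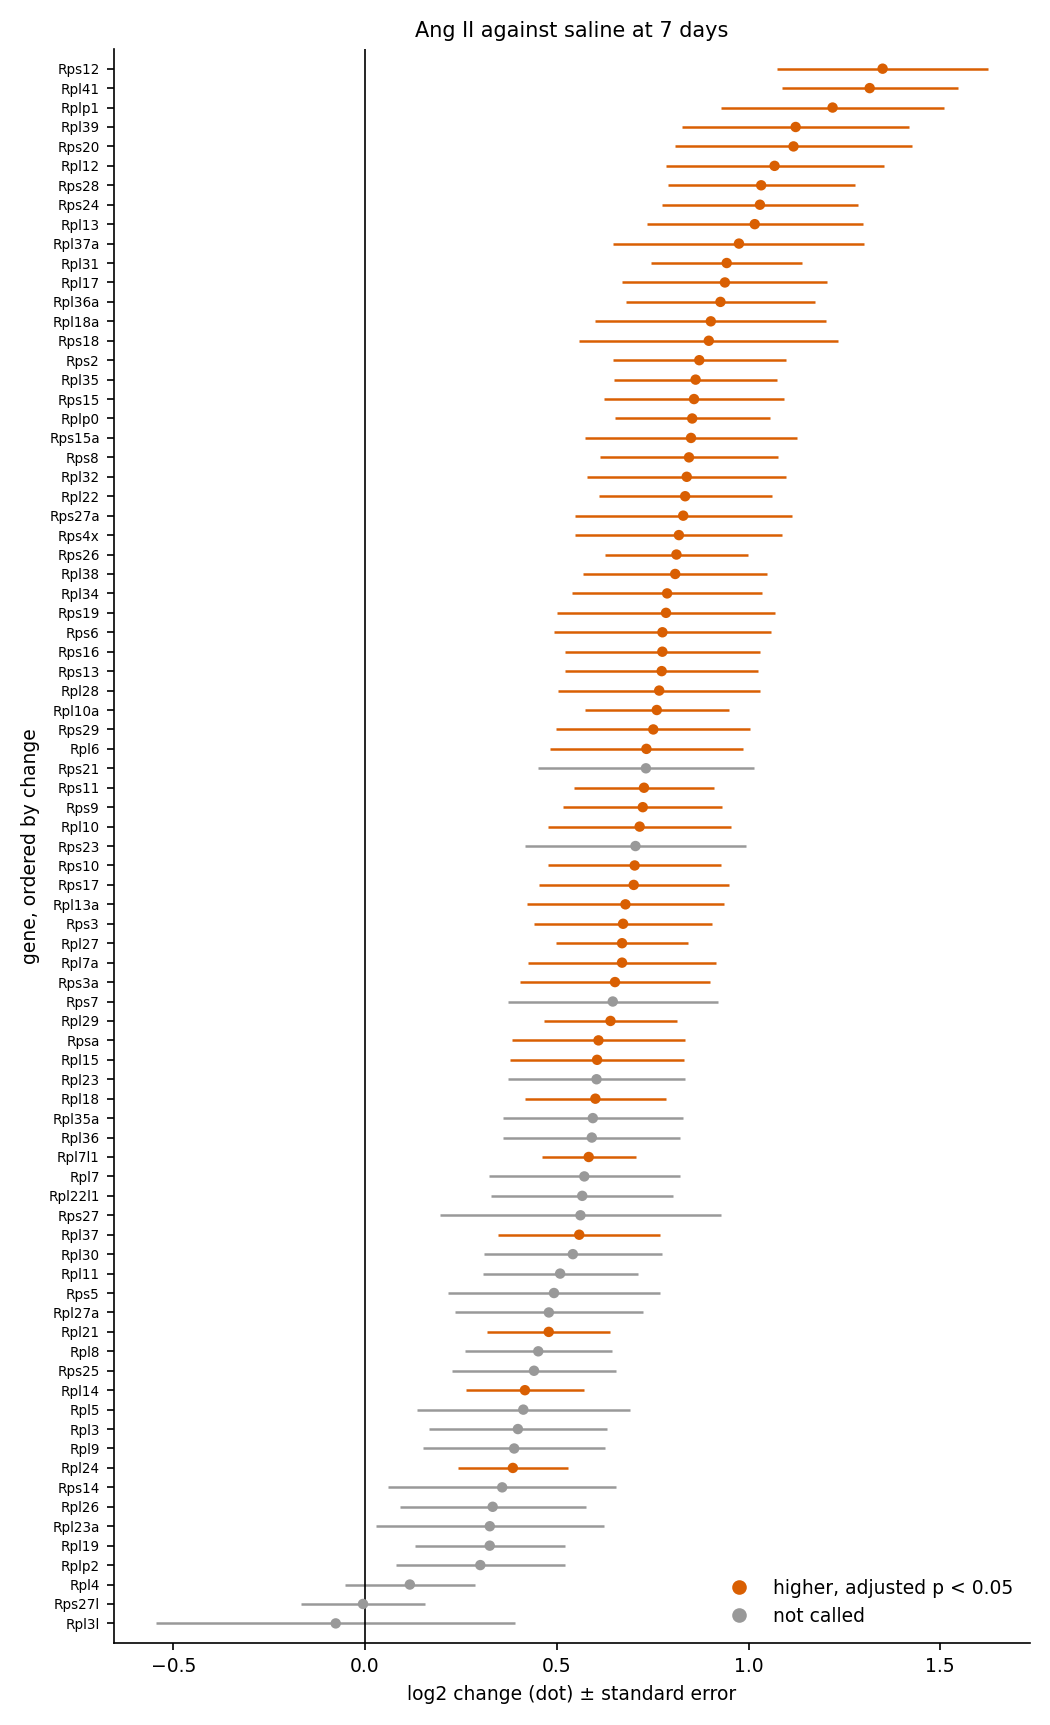
Log2 change of each of the 81 ribosomal protein genes, Ang II against saline at 7 days, as a dot with its standard error, ordered by size; orange marks the 55 genes called higher by limma (adjusted p under 0.05) and grey the 26 not called. Only Rps27l and Rpl3l lie at or below 0, and Rps12, Rpl41 and Rplp1 lead.

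Where a gene had several tested probes, most moved the same way. Of 38 such genes 8 had probes of opposite sign at 7 days, with a median gap between probes of 0.24 and the widest gap, 1.38, in Rps19. In Rps20 the second probe, far dimmer, gave a log2 change of -0.10. Over all 130 tested member probes 77 were called higher and none lower. The same share over all tested probes was not taken. Ribosomal protein genes have many processed copies in the genome, and the file places the brightest Rpl10 probe on chr13 and its other probe on chrX (mm8, per the file headers), with log2 changes of 0.72 and 0.64, so a probe may also read such copies.

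Members with a pyrimidine run at the listed start did not stand apart at 7 days. The 13 genes had log2 changes from 0.30 to 0.90 with a median of 0.73, and the 48 matched genes without it a median of 0.71.

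The machinery around the ribosome moved less as a whole. Of 50 ribosome biogenesis genes 4 were higher and 3 lower, with a median log2 change of 0.07. Eif6, which keeps the large subunit free until it is mature, rose by 0.54 (0.13), whereas Sbds, which releases Eif6, fell by 0.54 (0.15) and the small nucleolar protein gene Nop10 by 0.81 (0.16). Of 37 translation factors 5 were higher and 1 lower (median 0.01). Those that rose were led by Eef1g and Eef1b2, subunits of the exchange factor for elongation factor 1A, by 0.92 (0.19) and 0.87 (0.22), and the helicase gene Eif4a2 fell by 1.01 (0.21).

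Of 9 ribosome-associated and fusion genes 4 were higher and none lower. Rack1, a scaffold bound to the small subunit, rose by 1.14 (0.27) and Fau, a fusion that yields Rps30, by 0.78 (0.29). Btf3, of the nascent chain-associated complex, rose by 0.39 (0.14). In the mTOR, S6 kinase and Myc list 3 of 26 genes were higher and 6 lower (median -0.12). Mtor itself fell by 1.23 (0.24), Rps6kb1, the S6 kinase gene, by 0.47 (0.12) and Mycn by 1.18 (0.44), while Rps6ka1, a kinase that also targets Rps6, rose by 1.12 (0.30) and Myc by 0.64 (0.21).

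Mitochondrial ribosomal protein genes had 38 of 78 lower and 1 higher, with a median log2 change of -0.59. Among the 864 brightest other genes 205 were higher (23.7%) and 179 lower (20.7%), with a median of 0.14. These genes were chosen by the percentile alone and were not matched to the members' signal. The part of brightness in the members' rise was not tested.

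**Figure D3:**
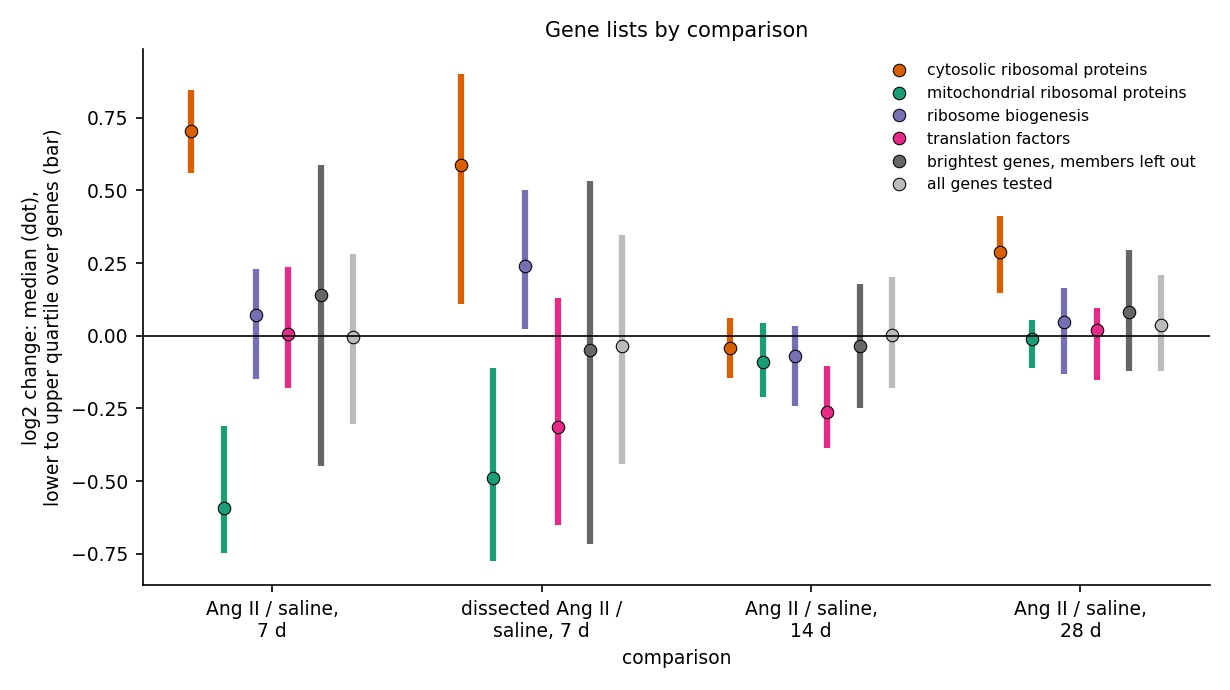
Median log2 change (dot) and lower to upper quartile over genes (bar) of 6 gene sets in 4 comparisons. The cytosolic ribosomal proteins stand at 0.71 and 0.59 in the comparisons at 7 days, where the mitochondrial ribosomal proteins stand at -0.59 and -0.49, and at -0.04 and 0.29 at 14 and 28 days.

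Markers of other cell types moved with the same groups. All 10 macrophage genes rose, with a mean log2 ratio per array of -0.45 to 0.57 in saline and 2.01 to 2.81 in Ang II. All 16 cell cycle genes rose, from a mean of -3.84 to -2.94 to one of -1.89 to -1.41, and 8 of 10 fibroblast genes rose, from 0.69 to 2.50 to 3.83 to 4.30. Of 9 brown fat genes 3 fell (means of 3.74 to 4.92 and 2.39 to 4.51) and of 10 chromaffin and sympathetic genes 7 fell (0.83 to 4.13 and -0.02 to 2.17). No T cell (0 of 9) or B cell (0 of 10) gene was called. Their part in the members' rise was not tested.

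The 3 dissected aortas were set against the same 6 saline aortas, so this comparison shares its controls with the one above. Some members were higher and a few lower. Of the 81 genes 33 were higher (40.7%) and 3 lower (3.7%), where 18.9% of all genes were called higher and 17.6% lower. The median log2 change was 0.59, and the changes ran from -0.88 to 2.00. For 36 members all dissected values lay above all saline values and for 3 below, against 17.2% and 16.3% of all genes. The per-array medians of -0.87, -0.75 and -0.60 lay above all saline aortas. With median centring 6 members were higher and 8 lower, the median was 0.06 and that of all genes -0.36. Within scan day 2, which holds all 3 dissected arrays and 3 saline arrays, 27 were higher and 2 lower, with a median of 0.60.

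Rplp1 was highest, with log2 ratios of 1.16, 1.32 and 1.45 in dissected aortas against at most -0.29 in saline, a log2 change of 2.00 (0.32, 4.01-fold, adjusted p = 1.25e-05). Rpl38, at 0.97, 1.12 and 1.17, rose by 1.66 on the log2 scale (0.26, adjusted p = 1.22e-05) and was the only named gene called under every alternative tried. Rps12 rose by 1.61 (0.30), Rpl41 by 1.53 (0.25) and Rps28 by 1.47 (0.27). Rplp2, at 0.62, 1.03 and 1.14, rose by 0.98 (0.24, adjusted p = 0.00193), while Rplp0, at -2.40, -2.39 and -2.00, had a log2 change of -0.14 (0.22, adjusted p = 0.661). The Arbp probes of Rplp0 gave 1.07 (0.30, adjusted p = 0.00558) and 0.43 (0.24, adjusted p = 0.176).

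The 3 genes that fell on the probe that stood for them were Rpl5, Rpl4 and Rps27l. Of the 3 tested Rpl7 probes 2 were also called lower, with log2 changes from -0.98 to -0.12 over the 3. Of the 3 tested Rpl7a probes 1 was called lower, at -0.66. The brightest probe of neither gene was called. Rpl5 was at -2.72, -2.13 and -1.98, all below the saline range of -1.77 to -1.15, and fell by 0.88 on the log2 scale (0.30, adjusted p = 0.0222). With the replicate number as a block its log2 change was -0.78 and it was no longer called (adjusted p = 0.0534). Rpl4 was at -3.30, -3.08 and -2.86 against -2.47 to -1.95 and fell by 0.76 (0.19, adjusted p = 0.00178). Rps27l was at -1.51, -1.30 and -1.21 against -1.08 to -0.11 and fell by 0.68 (0.18, adjusted p = 0.00298). Rps6 was at 0.66 (0.31, adjusted p = 0.0938), Rps20 at 0.79 (0.34, adjusted p = 0.0659) and Rpl39 at 0.62 (0.32, adjusted p = 0.135), and none of these was called.

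Around the ribosome, 18 of 50 biogenesis genes were higher and 6 lower in dissected aortas, led by Ubtf, a factor of RNA polymerase I, at 1.14 (0.20), Nop56 at 0.91 (0.18) and Eif6 at 0.90 (0.15). Of 37 translation factors 6 were higher and 17 lower, with Eif3a at -1.94 (0.19), Eif4g2 at -1.55 (0.17) and Eif4a2 at -1.42 (0.23). Fau rose by 1.34 (0.31) and Rack1 by 1.12 (0.30), and Tpt1, a translationally controlled protein gene with its own pyrimidine tract, fell by 0.91 (0.26). In the mTOR, S6 kinase and Myc list 5 of 26 were higher and 6 lower, with Rps6ka1 at 2.66 (0.33), Rheb, the activator of mTOR, at -2.12 (0.25) and Mtor at -1.69 (0.27). Mitochondrial ribosomal protein genes had 31 of 78 lower and 2 higher.

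In the dissected aortas all 10 macrophage genes rose, with a mean log2 ratio per array of 2.38 to 3.40. Of 16 cell cycle genes 14 rose (means of -1.71 to -1.42) and of 10 fibroblast genes 3 rose (2.28 to 3.14). Of 8 neutrophil genes 3 rose, with means of 1.79 to 2.50 against 0.53 to 1.89 in saline, and 2 of 10 contractile genes fell, with means of 1.55 to 2.41 against 1.63 to 3.73. Their part in the members' changes was not tested.

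**Figure D4:**
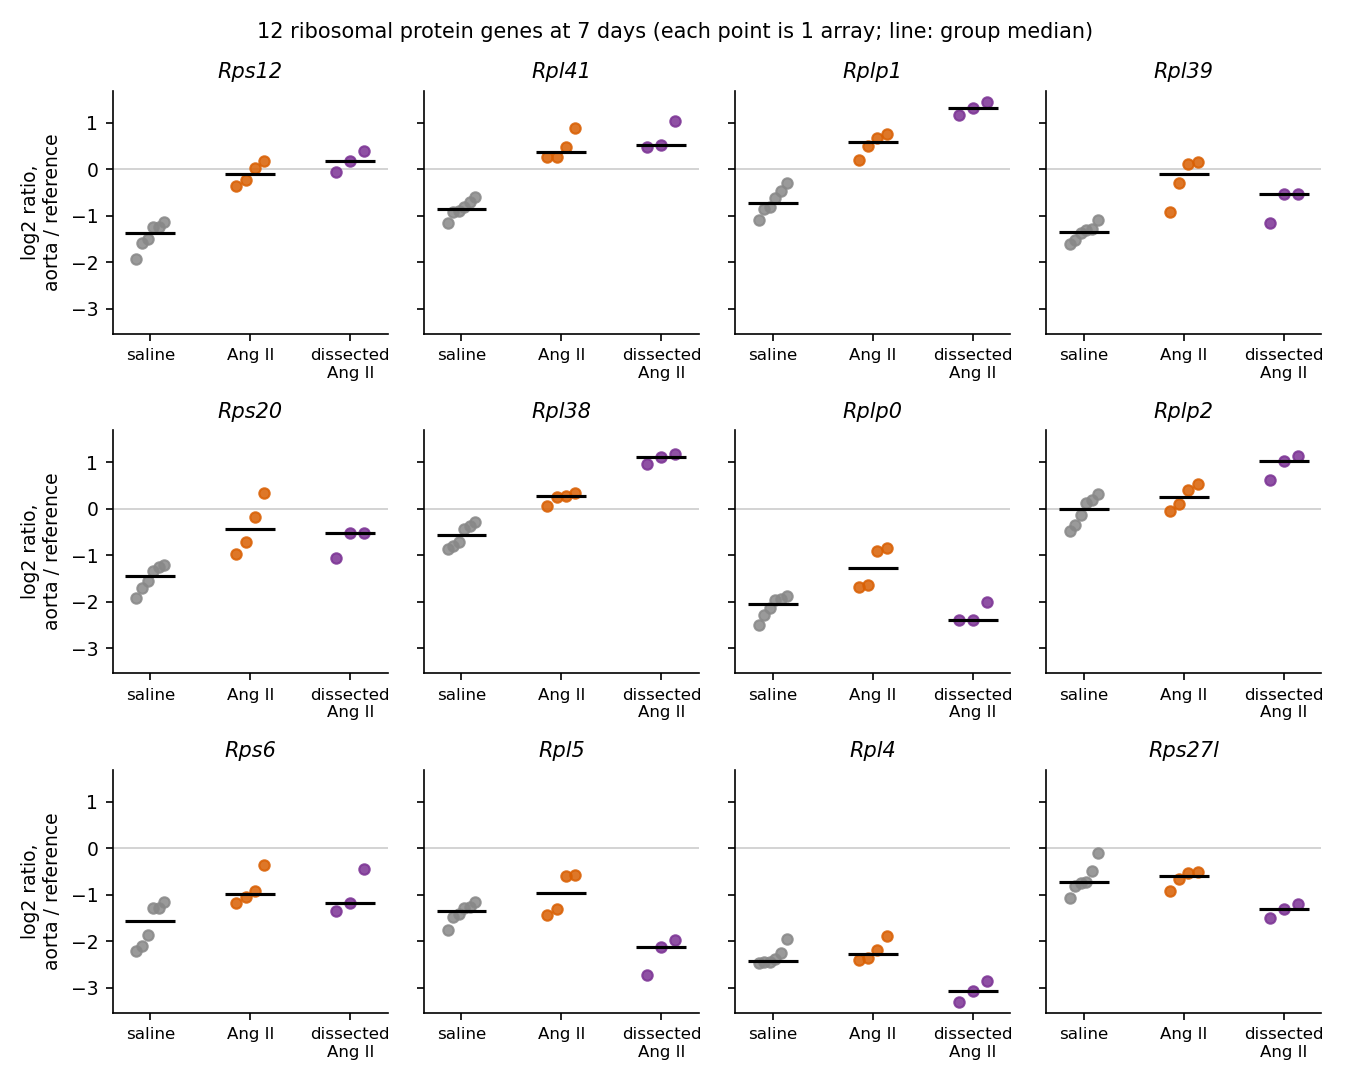
Log2 ratio of aorta to reference for 12 ribosomal protein genes in the 3 groups of 7 days; each point is 1 array (6 saline, 4 Ang II, 3 dissected Ang II) and the line the group median. Rplp1, Rpl38 and Rplp2 are highest in the dissected aortas, while Rpl5, Rpl4 and Rps27l are lowest there.

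Set directly against the non-dissected Ang II aortas, 8 members were lower in dissected aortas (9.88%) and none higher, where 8.03% of all genes were called, 4.97% lower and 3.06% higher. Among the 864 brightest other genes 8.1% were lower, close to the members' share. The members' median log2 change was -0.13, which became -0.24 without dissected replicate 1 and -0.05 without Ang II replicate 1. The 8 were Rpl5 at -1.30 (0.33, adjusted p = 0.0128), Rpl3, which fell by 1.00 (0.27), Rplp0 at -0.99 (0.24, adjusted p = 0.00922), Rpl10 at -0.89 (0.28), Rpl4 at -0.87 (0.20, adjusted p = 0.00664), Rpl19, Rpl29 and Rps27l at -0.67 (0.19), 7 of them of the large subunit. Neither of the Arbp probes of Rplp0 was called lower, at 0.09 (0.32, adjusted p = 0.915) and -0.35 (0.26, adjusted p = 0.475). Dissected values of Rpl3 were -2.43, -1.91 and -1.74 against -1.68, -1.02, -0.86 and -0.58 without dissection, and did not overlap. Those of Rpl10 were -1.72, -1.70 and -1.05 against -1.06, -0.75, -0.31 and -0.29 and met at the edge. Rpl7, not among the 8, had 2 of 3 tested probes called lower, with log2 changes from -1.29 to -0.69 over the 3. Rpl7a had 1 of 3 called lower.

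On the other side Rpl38 was at 0.86 (0.28, adjusted p = 0.0583), Rplp1 at 0.78 (0.34, adjusted p = 0.169) and Rplp2 at 0.68 (0.26, adjusted p = 0.107), each without overlap between the groups and none called. For 5 members (6.17%) all dissected values were higher and for 16 (19.8%) all were lower, against 11.8% and 15% of all genes. Members with a pyrimidine run at the listed start had a median log2 change of 0.09 and those without it of -0.17, with the same limit of the listed starts.

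Other lists also differed between these groups. Of 37 translation factors 10 were lower and none higher, led by Eif3a at -1.67 (0.20). All 10 fibroblast genes had a log2 change below 0 (median -1.38, 1 called lower), and their means per array of 2.28 to 3.14 lay below the 3.83 to 4.30 of the non-dissected aortas. All 10 contractile genes were below 0 (median -0.96, none called), with means of 1.55 to 2.41 against 2.66 to 3.27. All 10 chromaffin and sympathetic genes were above 0 (median 1.98, 1 called higher), with means of 1.75 to 3.73 against -0.02 to 2.17. The part of these shifts in the members' differences was not tested.

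**Figure D5:**
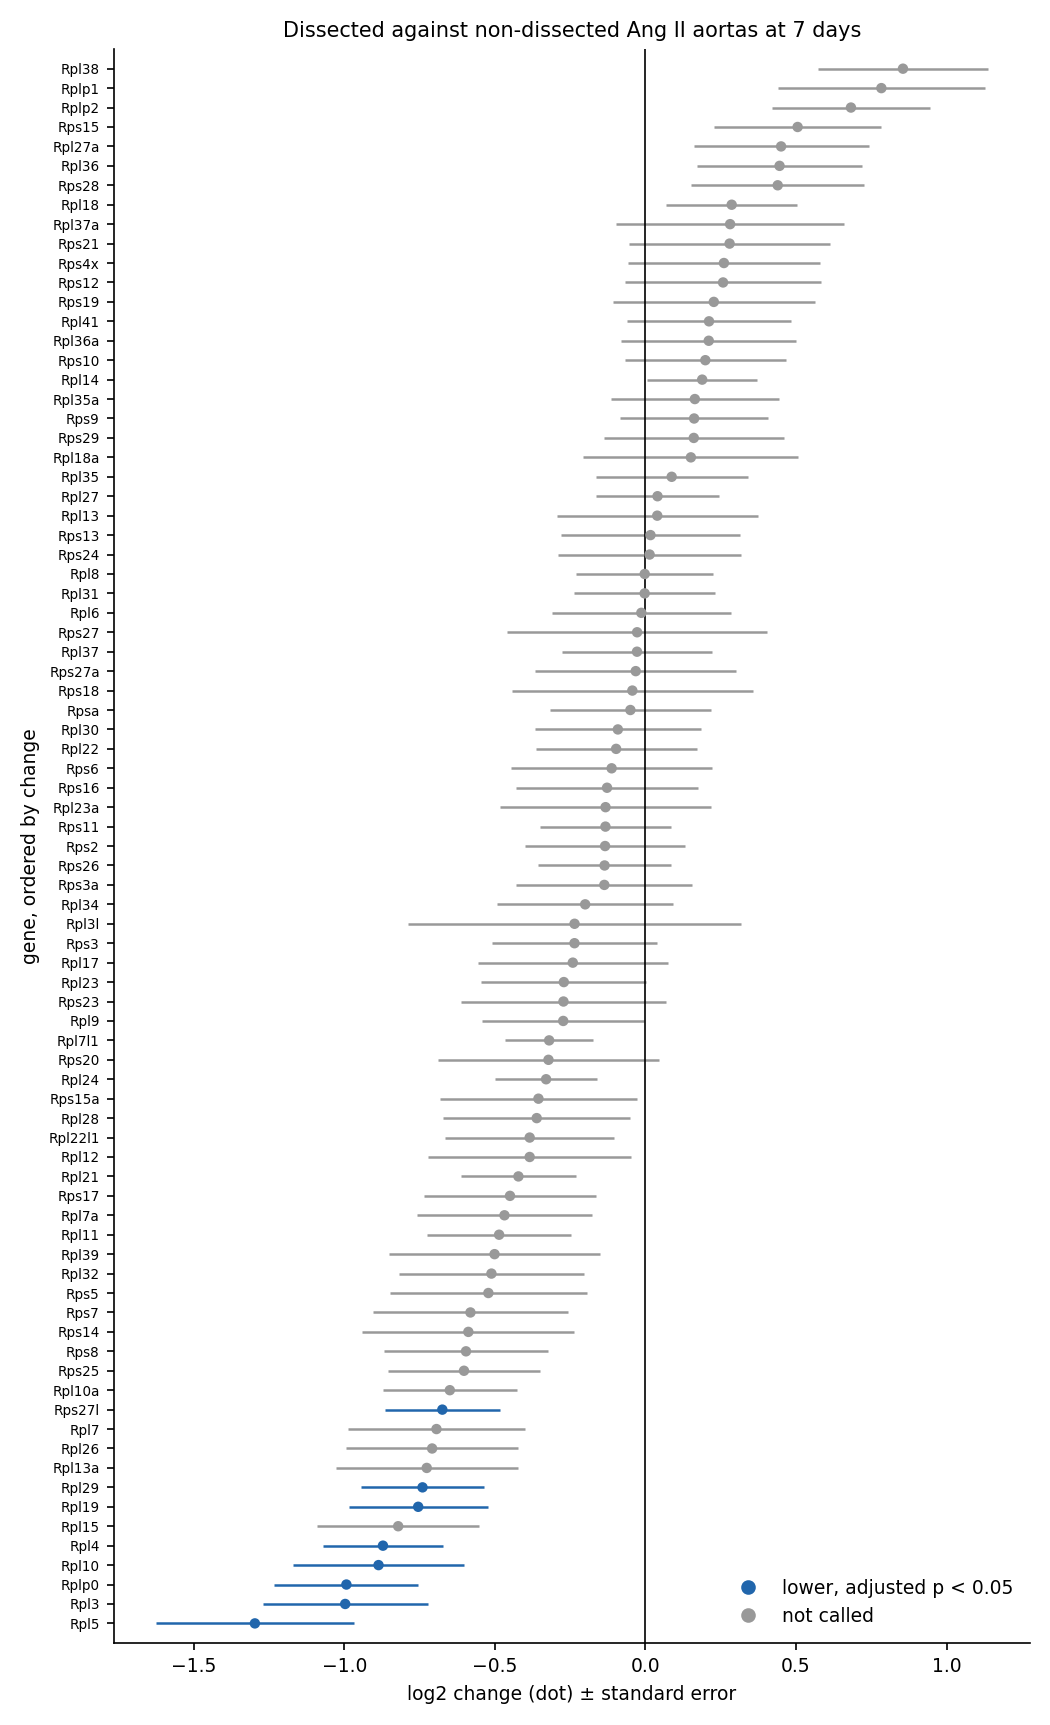
Log2 change of each of the 81 ribosomal protein genes, dissected against non-dissected Ang II aortas at 7 days, as a dot with its standard error, ordered by size; blue marks the 8 genes called lower by limma (adjusted p under 0.05) and grey the 73 not called. Rpl5, Rpl3 and Rplp0 lie lowest, and Rpl38, Rplp1 and Rplp2 highest.

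The dissected arrays also differed in how far paired probes of 1 gene departed from their mean difference over the arrays. Over 1627 pairs of probes of the same non-member gene, at least 300 bases apart, the difference between the paired log2 ratios was taken. Each pair's mean difference over all arrays was then subtracted. The standard deviation of the remaining difference was 0.66, 0.66 and 0.73 on the dissected arrays and 0.24 to 0.50 on all others. Among members with several probes the widest gap in the dissected comparison with saline was 1.96, again in Rps19, whose probes gave 1.01 (0.31) and -0.95 (0.32), both called. In Rps25 the brightest probe had a log2 change of -0.16 (0.23) and a far dimmer one of 1.34 (0.15). Over the 130 tested member probes 52 were called higher and 7 lower than in saline. Against non-dissected Ang II aortas 3 member probes were called higher and 11 lower. Shares over all tested probes were not taken. The share of spots above background was 47.2% to 50.5% on the dissected arrays and 52.4% to 58.4% on the other 7-day Ang II arrays. All 3 dissected arrays were scanned on day 2, with 1 of the 4 other Ang II arrays. The part of these probe departures, depth and scan day in the members' differences was not tested. With scan day as a block 3 members were lower, and within day 2 none was called and the median was 0.06. Without dissected replicate 2 none was called, without replicate 3 there were 5, and without Ang II replicates 1 and 2 there were 3 and 2.

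At 14 days the members were level with saline. None of the 81 was called, where 2.4% of all genes were (limma). A single member had an unadjusted p under 0.05, against 3442 of all 18687 genes. A change above 0 was seen in 31 members (38.3%), against 50.2% of all genes. The members' median log2 change was -0.04. It was -0.14 without saline replicate 5 and 0.08 without saline replicate 6, so its sign depended on single arrays. Per-array medians of -1.27, -1.12, -1.03, -1.01 and -0.89 in Ang II lay within the saline range of -1.48 to -0.46 (median -1.02). Rps12, the top gene at 7 days, had log2 ratios of -1.22, -1.14, -1.02, -0.94 and -0.76 in Ang II and of -1.48 to -0.62 (median -0.95) in saline, a log2 change of 0.00 (95% interval -0.53 to 0.52). Rpl4 had the lowest change, -0.49 (0.16, adjusted p = 0.0878). One member was called lower with array weights. Kidney tubule genes were lower in 4 of 8 and higher in none, with means per array of 0.23 to 2.03 in saline and 0.11 to 0.30 in Ang II. Fibroblast genes were higher in 4 of 10 and macrophage genes in 1 of 10, with all 10 of each list above 0. Their part in the members' values at 14 days was not tested.

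At 28 days none of 81 was called, where 0.899% of all genes were, and the Ang II aortas were spread widely. Their per-array medians ran from -1.51 to -0.16 (median -0.90) and those of saline were -1.85, -1.34, -1.23, -1.04 and -0.43, so the groups overlapped. The median log2 change was 0.29, against 0.04 over all genes. A change above 0 was seen in 74 of 81 members (91.4%), against 56.8% of all genes. An unadjusted p under 0.05 was reached by 14 of 81 members and by 2830 of all 18687 genes. Scale normalization, which multiplied saline replicates 2 and 4 most, called 55 members with a median of 2.62. The share of all genes it called is not given, so this count is not read as a result about the members. Without the 3 saline arrays of low log2 ratios the median was 0.04, without saline replicate 2 alone 0.12, and without Ang II 14-day replicate 4 and saline 28-day replicate 5 it was 0.45. Rpsa was at 0.72 (0.21, adjusted p = 0.102), with log2 ratios of -3.39, -3.20, -3.11, -3.03 and -2.86 in saline and -2.99 to -1.81 in Ang II (median -2.33). The other Rpsa probe had a log2 change of -0.03. Rplp0 was at 0.52 (0.19, adjusted p = 0.183) and Rpl38 at -0.21 (0.24). Macrophage genes were higher in 5 of 10 at 28 days and fibroblast genes in 1 of 10. Their part in the members' values at 28 days was not tested.

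The 3 times were then compared for the size of the Ang II effect. An F test in limma called 277 genes (1.48%) and none of the members. An unadjusted p under 0.05 was reached by 28 members (34.6%), against 20.5% of all genes. The smallest adjusted p among members, 0.079, belonged to Rplp0. The effect at 14 days minus that at 7 days was below 0 in 80 of 81 members, with a median log2 difference of -0.78 against -0.04 over all genes. Of the members 60 (74.1%) had an unadjusted p under 0.05 in this difference, against 20.4% of all genes, but none passed the adjustment, where 1.02% of all genes did. Rps12 had the widest difference, -1.35 (0.38, adjusted p = 0.0684), and Rplp0 the smallest adjusted p, at -1.04 (0.28, adjusted p = 0.0568).

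The effect at 28 days minus that at 7 days had a median of -0.41, with 78 members below 0 and none called (2.63% of all genes). In this difference 11 members (13.6%) had an unadjusted p under 0.05, below the 19.5% of all genes. Rpl38 was at -1.02 (0.34, adjusted p = 0.0882) and Rpl41 at -0.98 (0.31, adjusted p = 0.0783). Both differences use the same 7-day arrays. With array weights the F test called 23 members, 5 on the deposited series table and 1 on the scanner software's processed signals. The shares of all genes called in these fits are not given.

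In saline alone no member was called over time. The F test called 0.61% of all genes and none of the 81, with a smallest adjusted p of 0.333 in Rpl18. An unadjusted p under 0.05 was reached by 2 members (2.47%), against 12.7% of all genes. Scale normalization called 25 members, and the share of all genes it called is not given. The saline aortas still differed among themselves, with a median standard deviation per member of 0.26 at 7 days, 0.38 at 14 days and 0.47 at 28 days.

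Within groups the members varied together. After the group means were taken out, the median correlation between 2 members over the 35 arrays was 0.68, as high as among mitochondrial ribosomal protein genes at 0.66. These points share an array, its normalization and its dissection of tissue, so the value is a description. No such value was taken over other genes, so it does not show that members varied together more than genes in general. Rpl21, Rps27l, Rpl3l and Rpl7l1 followed the others least, with median correlations of 0.11, 0.12, 0.25 and 0.28.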

How the data were processed

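The authors deposited scanner output from Feature Extraction 9.5.3.1 (Agilent), which gives per spot the mean and local background intensity of both dyes, per the file headers. The same files give the software's own log10 ratio of red to green, per the file headers. A table of log2 ratios was also deposited; its slope on that log10 ratio was 3.32 to 3.34 over the arrays (correlation 0.986 to 1.00), so base and direction are known; its normalization is not given in the sources used here. Per the labels' protocols, Cy5 marked amplified aorta RNA on every array and Cy3 the reference, which was reverse transcribed without amplification, so dye and sample cannot be told apart within an array.

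Background was corrected by normexp with an offset of 50, and ratios were normalized by loess within arrays, in R 4.3.3 with limma 3.58.1 and statmod 1.5.0. Values with outlier marks were left out (15 of 2835 for members, in 11 genes). Spots of a probe were averaged. A probe was tested if well above background on at least 3 arrays, and the brightest stood for its gene. Probe names were updated through a RefSeq gene table (GRCm38.p6). A limma model of 7 group means was fitted to 35 arrays with 28 residual degrees of freedom. Calls used an adjusted p under 0.05 (Benjamini-Hochberg over 18687 genes). Errors in parentheses are standard errors of the log2 change. The code was tested on simulated data. Alternatives were median centring or scale normalization, the aorta channel alone, no filter on dim probes, the mean of a gene's probes, saturated spots left out, only the arrays compared, the software's processed signals, the deposited table, slide, scan day or replicate number as a block, array weights, fits within scan day, and each array left out in turn. The members and lists were chosen with earlier results of these data known. Named genes were the 5 largest rises and 5 largest falls called in each comparison, a fixed set of well-studied members, and 3 called genes with the largest change per list; Rpl19, Rpl29, Rps25, Rpl18, Rpl21 and Rpl7l1, and pathway genes beyond those 3, were chosen after their values were seen.

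Replicate numbers come from the titles. Over 20 same-numbered pairs the correlation of deviations from the group means ran from -0.397 to 0.594, and 11 were above 0.1, so the numbers were not taken to pair the aortas in general. All 3 pairs of dissected and saline aortas were above 0.1 (0.13 to 0.498), and there the blocked value is given where it changes a call. Labels do not say more of how aortas relate, so a p-value reflects the scatter of these aortas alone. The number of arrays limits the precision.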

Additional observations from a re-analysis of the deposited data

Results flagged for a closer look

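In 7 places 1 array stood apart from the rest of its group by a gap test (Dixon's, at the 95% level). Such gaps arose in 7 of 168 groups of 4 to 6 values examined over 27 named members and the median over all members, that is 4.17%, and chance gives about 1 in 20. Rpl11 was lowest in saline 7-day replicate 5, at a log2 ratio of -0.73, the array with the lowest members' median of that group. Rpl38 was highest in saline 28-day replicate 5, at 0.46, which is the array with the fewest spots above background. Rplp0 at -1.28 and Rps6 at -0.55 were highest in saline 14-day replicate 6, whose members' median was also the highest of its group. Rpl3l, dim on most arrays, was highest at 1.32 in saline 7-day replicate 4, at 2.13 in saline 14-day replicate 1 and at 0.93 in Ang II 7-day replicate 2. No cause was tested for any of these values.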

How the results depend on the processing

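None of the 35 calls followed for named members changed sign under the alternatives tried, and 1, Rpl38 in dissected aortas against saline, held in every one. With median centring 6 members were called at 7 days, and in dissected aortas against saline 14, with a median log2 change of 0.0597. Scale normalization after loess gave 0 at 7 days, 2 in dissected aortas against saline and 0 against Ang II, 55 at 28 days with a median of 2.62, and 25 for saline over time; it multiplied each array by 0.551 to 5.2, most on saline 28-day replicates 2 and 4. The aorta channel alone gave 1 at 28 days. Dissected against other Ang II aortas had 14 calls on the processed signals, 14 on the series table, 22 with array weights, 3 with scan day as a block and 0 within day 2. The test among times called 1, 5 and 23 members on the processed signals, the series table and with array weights, and array weights gave 1 at 14 days. Within scan day 1 there were 21 calls at 7 days, within day 2 0, and within day 2 2 at 28 days. Shares of all genes called under the alternatives are not given here or above, so these counts describe the members only. The cause of these shifts was not tested.

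Leaving out 1 array at a time, 25 to 55 members were called at 7 days, 0 to 2 at 28 days, 28 to 37 in dissected aortas against saline, 0 to 8 against Ang II, 0 to 3 in the test among times, and 0 at 14 days and for saline over time. The lowest counts came without Ang II replicate 1 at 7 days, without dissected replicate 1 against saline and without dissected replicate 2 against Ang II. With the replicate number as a block (replicate block) 63 members were called at 7 days, 42 in dissected aortas against saline and 10 against Ang II, and no count moved by over 1.5 times. Of the named calls it ended Rpl5 in dissected aortas against saline (adjusted p = 0.0534) and Rpl10 against Ang II (adjusted p = 0.0543). Slide as a random block had a correlation of 0.0391 and changed no count by over 1.5 times. The 2 sets of arrays left out above were chosen after seeing the data. Rpl3l alone among members is limited by its signal over background.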
